A study of Mus musculus with 2 samples.

Results

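The 82 cytosolic ribosomal protein genes described here are the protein-coding genes of the GENCODE M21 annotation whose symbols have the form Rpl, Rplp or Rps followed by a number, with the suffixes a, x, y or l allowed. They are 82 of 43346 annotated genes in the deposited gene quantifications, 51 for the large (60S) and 31 for the small (40S) ribosomal subunit. The rule used symbols alone and no measured value. Polyadenylated RNA longer than 200 nt was sequenced from frontal cortex of adult C57BL/6J mice aged 8 weeks, in 2 biological replicates that form the only group. Reads were paired and stranded. The study has no second condition, so the values below are levels within this tissue, ratios between related genes, and ratios between the replicates.

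Each ribosome carries 1 copy of nearly every ribosomal protein, and the subunits are assembled in the nucleolus from these proteins and ribosomal RNA. The mRNAs of this family are short and abundant, and many begin with a run of pyrimidines (a 5' terminal oligopyrimidine tract) through which mTOR signalling and Larp1 control their translation. Mammalian genomes hold large numbers of processed pseudogenes of these mRNAs. A small group of paralogs, such as Rpl3l and Rpl10l, is known mainly from muscle or testis.

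Expected counts, which are estimated numbers of fragments, summed to 106084891 in replicate 1 and 90476207 in replicate 2. The labels give both replicates the same donor identifier and describe both as pooled from males and females. Xist, the RNA of the inactive X chromosome, was at 0.25 TPM in replicate 1 but 110 TPM in replicate 2, and the Y-linked gene Eif2s3y at 53.8 and 0.05 TPM, which goes against the label of pooled sexes in both libraries. TPM, a length-adjusted share of transcripts, divides counts by effective length and scales each library to the same total. All 5 excitatory neuron markers exceeded 1 TPM, with a median of 424 TPM, and all 5 astrocyte and all 5 oligodendrocyte markers exceeded 10 TPM. Because this is bulk tissue, fewer cells of a type and less RNA per cell cannot be told apart. The spread between the 2 libraries has 1 degree of freedom, so no p-values are given: flipping signs exactly over so few libraries cannot give a two-sided p below 0.5.

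Ribosomal protein mRNAs were among the most abundant nuclear transcripts of this tissue. The 82 genes together took 3.11 ± 0.170% of all TPM (SD, n = 2) and 6.30 ± 0.133% of the TPM of nuclear protein-coding genes. Not divided by length, the shares were 1.15 ± 0.0278% of all expected counts and 1.40 ± 0.0183% of those of nuclear protein-coding genes, from 1236174 fragments in replicate 1 and 1018661 in replicate 2. Of the 82 genes, 79 had a mean of 10 TPM or more, 75 of 100 TPM or more and 4 of 1000 TPM or more. Their median was 339 TPM in the first library and 299 TPM in the second, beside a median mean level of 27.6 TPM for the 7916 nuclear protein-coding genes at 10 TPM or more. Among all nuclear protein-coding genes ranked by mean TPM, members held 10 of the top 50 places, 18 of the top 100 and 67 of the top 500.

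Levels within the family were far from equal. Without the 6 genes named as paralogs with the suffix l (Rpl3l, Rpl7l1, Rpl10l, Rpl22l1, Rpl39l and Rps27l), the remaining 76 ran from 50.2 ± 6.89 TPM for Rpl5 to 1948 ± 110 TPM for Rplp1, a 38.8-fold range. The middle of that distribution was narrow, with quartiles of 225 and 465 TPM. Large subunit genes had a median of 290 ± 14.9 TPM and small subunit genes one of 341 ± 5.42 TPM. The log2 ratio of the large over the small subunit median was −0.23 ± 0.05, and it was −0.11 when genes under 10 TPM, all of them large subunit paralogs, were left out, and −0.034 in CPM, counts scaled to the library total, which are not divided by length. The 10 highest members, 5 of each subunit, carried 33.6% of the family's TPM.

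**Figure D1:**
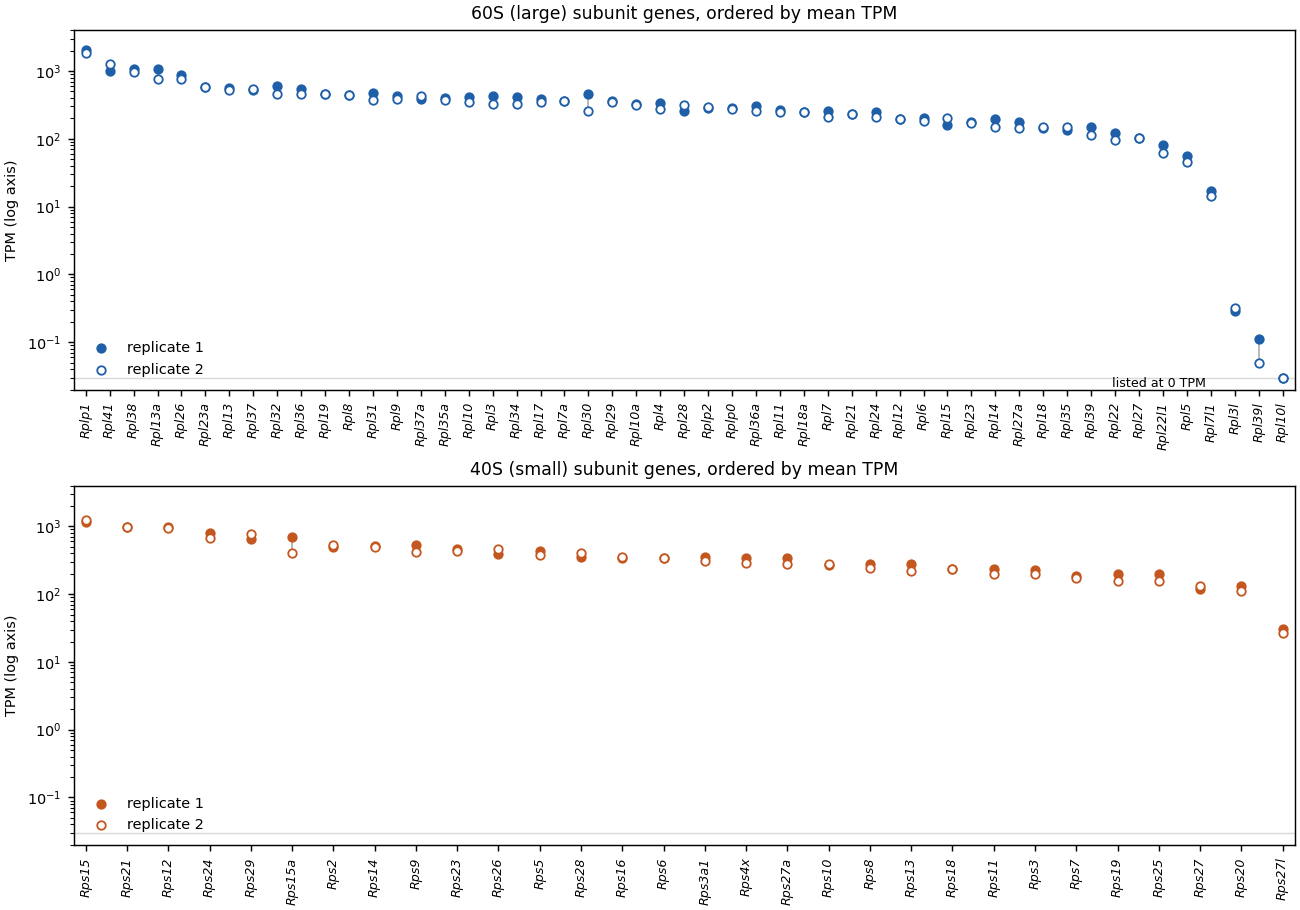
Deposited TPM (log axis) of 81 of the 82 genes in replicate 1 (filled) and replicate 2 (open), for the large subunit above and the small subunit below, ordered by mean TPM; a gene listed at 0 is drawn on the grey line. All but 7 of the genes drawn lie at 100 TPM or more, and the 3 lowest, Rpl3l, Rpl39l and Rpl10l, lie under 1 TPM.

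Rplp1 encodes an acidic protein of the lateral stalk, the part of the large subunit that recruits translation factors. It was the highest member, at 2026 TPM and, in the second library, 1871 TPM (ENSMUSG00000007892.7, mm10 chromosome 9, 61913284 to 61914542). Rps15, a protein of the small subunit's head near the decoding site, followed at 1147 and 1235 TPM. Rpl41, the smallest ribosomal protein, was at 1000 and 1279 TPM. Its whole coding sequence is shown because 78 bases, 25 codons and a stop, make it the shortest coding region of the family's abundant mRNAs.

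Rpl41, coding sequence: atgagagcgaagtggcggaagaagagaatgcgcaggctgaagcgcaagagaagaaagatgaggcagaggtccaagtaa

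Next came Rpl38, at 1070 and 970 TPM, Rps21 at 968 and 963 TPM, and Rps12 at 969 and 959 TPM. Rps21 and Rps12 were nearly level in both libraries and cannot be placed in order. Rpl13a was at 1064 and 768 TPM, a spread wider than its distance to these neighbours. Rpl26, a protein at the exit of the nascent peptide tunnel, was at 884 and 769 TPM. Rps24 was at 803 and 677 TPM and Rps29 at 655 and 776 TPM, so that Rps24 was the higher in replicate 1 and Rps29 in replicate 2.

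At the other end, Rpl10l was listed at 0 counts in both libraries. A count of 0 was taken to allow up to 3 counts, or 0.0445 TPM for replicate 1 and 0.0496 TPM for replicate 2. This ceiling is a convention and no hard limit. Rpl39l had 4 and 2 counts, 0.11 and 0.05 TPM. Rpl3l, the striated muscle paralog of Rpl3, had 28 and 24 counts, 0.29 and 0.32 TPM. The other low members were expressed. Rpl7l1 was at 17.0 and 14.2 TPM, Rps27l at 30.3 and 26.9 TPM, Rpl5 at 55.1 and 45.4 TPM, and Rpl22l1 at 81.6 and 62.0 TPM. Rpl27 followed at 103 and 104 TPM, Rpl22 at 120 and 94.9 TPM and Rps20 at 130 and 113 TPM. Rps20 has 3 annotated transcripts and an effective length of 1368 nt, and by CPM it stood at place 42 of the family instead of 73.

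Ordered by role in the ribosome, the stalk group (Rplp0, Rplp1, Rplp2 and the stalk base protein Rpl12) had a median of 285 TPM and spanned 196 to 1948 TPM. Rpl5 and Rpl11, which bind the 5S ribosomal RNA, lay at 50.2 ± 6.89 and 257 ± 7.30 TPM. The proteins reaching towards the peptidyl transferase centre were close together, with Rpl3 at 374 ± 69.1 TPM, Rpl10 at 378 ± 48.0 TPM and Rpl8 at 447 ± 2.49 TPM. The 8 proteins around the exit tunnel (Rpl4, Rpl17, Rpl19, Rpl23a, Rpl26, Rpl31, Rpl35 and Rpl39) spanned 133 TPM for Rpl39 to 826 TPM for Rpl26, with a median of 395 TPM. On the small subunit, the 5 proteins of mRNA entry and decoding (Rps2, Rps3, Rps9, Rps15 and Rps23) had a median of 477 TPM and the 3 at the mRNA exit (Rps14, Rps26 and Rps28) one of 428 TPM. The 9 genes best known from mutations in Diamond-Blackfan anaemia, Rps19 among them, ran from 50.2 TPM for Rpl5 to 740 TPM for Rps24, with a median of 273 TPM. None of these roles formed a level of its own, since each range overlapped the middle of the family.

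Paralogs were compared as log2 ratios of TPM with a pseudocount of 0.1 in each library. A pair was taken as beyond the spread when the sign was the same in both libraries, the mean exceeded the SD, and the deposited TPM intervals of the genes did not overlap in either library; the level of these intervals is not given in the sources used here. By that rule 11 of 12 paralog and stalk pairs differed. Every pair of unrelated genes that share only a number, described below, also differed by it. The count is therefore no result about paralogs, and the sizes of the ratios are given instead. In muscle-type or testis-type pairs the general gene was the abundant one. Rpl3 was at 423 and 325 TPM against 0.29 and 0.32 TPM for Rpl3l, a log2 ratio of 9.84 ± 0.34, although their coding sequences are 73.3% identical. Rpl10, which joins the large subunit last and is X-linked, was at 412 and 344 TPM. With Rpl10l set at the ceiling of 3 counts per library, Rpl10 was 9264-fold higher in replicate 1 and 6939-fold in replicate 2. Rpl39 was at 151 and 114 TPM where Rpl39l had its 4 and 2 counts. Rpl7 was at 261 and 213 TPM, a log2 ratio over Rpl7l1 of 3.92 ± 0.02 in TPM but 2.42 in CPM, Rpl7l1 having an effective length of 2394 nt.

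Other pairs were closer. Rpl22 and Rpl22l1 are paralogs with 68.2% identical coding sequence, and the Rpl22 protein is known to repress Rpl22l1. Rpl22 was at 120 and 94.9 TPM and Rpl22l1 at 81.6 and 62.0 TPM, a log2 ratio of 0.59 ± 0.04. In CPM the ratio was 1.62, the direction being the same. Rpl36a was at 301 and 259 TPM and the intronless Rpl36al, which the symbol rule leaves out, at 162 and 150 TPM, a log2 ratio of 0.84 ± 0.08 in TPM and 0.68 in CPM. Rps4x was at 338 and 288 TPM and its transcribed processed pseudogene Rps4l at 24.6 and 25.6 TPM, a log2 ratio of 3.63 ± 0.20.

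The stalk is built from 1 Rplp0 and dimers of Rplp1 and Rplp2. Rplp2 was at 289 and 292 TPM and Rplp0 at 281 and 280 TPM, and their deposited intervals overlapped in both libraries, with a log2 ratio of 0.05 ± 0.01. Rplp1 exceeded Rplp2 by 2.75 ± 0.09 on the log2 scale and Rplp0 by 2.80 ± 0.08. In CPM these ratios were 1.65 and 0.80, and Rplp2 was then below Rplp0 (−0.84), so the distances within the stalk depend on the length correction while the place of Rplp1 at the top does not.

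**Figure D2:**
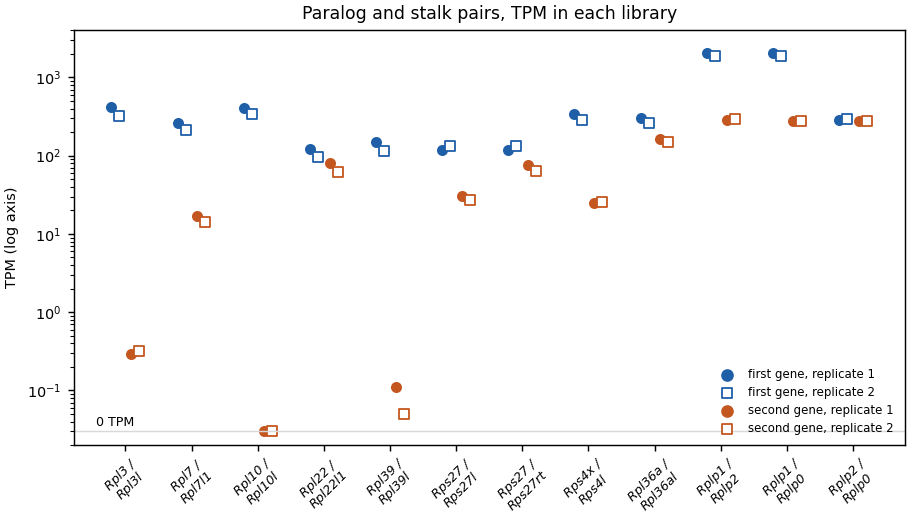
Deposited TPM (log axis) of the first gene (blue) and the second gene (orange) of the 12 paralog and stalk pairs in replicate 1 (filled circles) and replicate 2 (open squares); a gene listed at 0 is drawn on the grey line. Rplp2 and Rplp0 are level, and Rpl10l, Rpl39l and Rpl3l lie under 1 TPM.

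Rps27, a zinc finger protein of the small subunit, had the shortest effective length of the family. It was at 119 and 133 TPM from only 477 and 403 counts, because its gene model in the deposited quantification is 255 nt, the length of its coding sequence, while the lead transcript in M21 is 345 nt. Its effective lengths were 48.4 and 40.5 nt. Rps27l, at 30.3 and 26.9 TPM, had 748 and 583 counts. The log2 ratio of Rps27 over Rps27l was 2.13 ± 0.23 in TPM and −0.58 in CPM. The retrogene Rps27rt on chromosome 9, at 76.2 and 63.3 TPM, had 1025 and 730 counts on a 370 nt model, and Rps27 over Rps27rt was 0.86 ± 0.30 in TPM and −0.97 in CPM. Both ratios reversed with the scale. The first 120 coding bases are shown because they show how far reads of these genes can be told apart: Rps27rt differs from Rps27 at 0 of 255 coding bases, and Rps27l at 61 of 255, of which 28 fall in this stretch. Capitals mark bases that differ from Rps27.

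Rps27: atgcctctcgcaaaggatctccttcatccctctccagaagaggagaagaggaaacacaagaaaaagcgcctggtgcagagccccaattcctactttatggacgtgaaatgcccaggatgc
Rps27rt: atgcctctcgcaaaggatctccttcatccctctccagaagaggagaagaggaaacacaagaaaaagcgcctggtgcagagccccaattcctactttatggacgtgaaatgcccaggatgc
Rps27l: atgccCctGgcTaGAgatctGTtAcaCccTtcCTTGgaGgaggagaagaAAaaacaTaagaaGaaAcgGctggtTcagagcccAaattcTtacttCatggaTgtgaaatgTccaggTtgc

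The split of fragments between Rps27 and Rps27rt is therefore uncertain, and the values for both genes are the authors' estimates. The 12 pairs that share only a number, such as Rpl7 and Rpl7a or Rps15 and Rps15a, are not paralogs. Their coding sequences were 36.8 to 49.1% identical, beside 54.1 to 100% for the paralogs with a coding sequence.

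Length entered the levels throughout. Members had a median effective length of 532 nt in both libraries, against 2240 and 2237 nt for protein-coding genes at 10 TPM or more. Deposited length exceeded effective length by 208 and 216 nt, so short models lost most of their length. Across the 82 members, Spearman's rho of TPM with effective length was −0.51 and of CPM with effective length 0.22. These are descriptions across genes, which are not independent replicates, and effective length is itself the divisor of TPM. The 16 members with an effective length under 300 nt had a median of 463 TPM and 93.4 CPM, and the others 285 TPM and 144 CPM. Of the 10 highest members by TPM, 3 were also among the 10 highest by CPM. Rplp1 led on both scales (443 CPM), followed in CPM by Rpl3 (330 CPM), Rps2 (313 CPM) and Rpl41 (298 CPM). Rpl3 stands at place 32 by TPM, and Rpl38 moved from place 4 by TPM to place 43 by CPM.

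Short transcript models weighed more in TPM than in counts. The 82 genes had 370 transcripts, of which 44 were shorter than 400 nt. These took 14.6 ± 0.902% of the members' TPM and 4.77 ± 0.274% of their counts. Short transcripts took over 50% of the gene's TPM in both libraries in 7 members. In Rpl38, Rps21, Rps28 and Rps29 a short transcript is the main mRNA, and Rps27 had a short model alone. Other members had short models beside longer ones. Rps15a, a small subunit protein, was at 706 and 407 TPM, of which a 250 nt model with an effective length of 43.6 and 36.0 nt took 81.2 and 70.5%, although it held only 11.6 and 6.40% of the gene's counts. Without transcripts under 400 nt, Rps15a was at 133 and 120 TPM. Rpl30 was at 462 and 262 TPM, and a 388 nt model annotated as a processed transcript took 60.7% and 25.3% of it. Without short models Rpl30 was at 182 and 195 TPM, so that the replicate with the higher value changed. Rps9 went from 534 and 420 TPM to 267 and 273 TPM in the same way, its 378 nt model being annotated as a retained intron. Rpl13a kept its direction, at 476 and 376 TPM.

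Across the family 28 members had a most used transcript under 90% of the gene's TPM in both libraries, out of 79 at 10 TPM or more, where the share of all protein-coding genes above that level was 59.5%. A single transcript was annotated for 21 members. The lead transcript is the one with the largest mean percent over the 2 libraries. The lowest shares of the lead belonged to Rpl15 (39.2 and 33.3%), Rpl30 (60.7 and 25.3%), Rps10 (45.9 and 52.6%), Rpl12 (50.4 and 53.6%) and Rpl5 (53.0 and 52.7%). In replicate 2, protein-coding transcripts of Rpl30 took 36.7 and 33.4%, each more than its lead. In replicate 1, another transcript of Rps10 took 50.05%, more than its lead. In 8 members the lead by TPM was not the lead by counts. The lead by TPM was not annotated as protein-coding in 4 members: Rpl12 (nonsense-mediated decay), Rps20 (retained intron), Rpl30 and Rpl13a, whose model is not in M21. By counts, every lead was protein-coding. Transcripts of the protein-coding class took 93.3 ± 1.11% of the members' TPM and retained-intron transcripts 2.13 ± 0.206%.

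**Figure D3:**
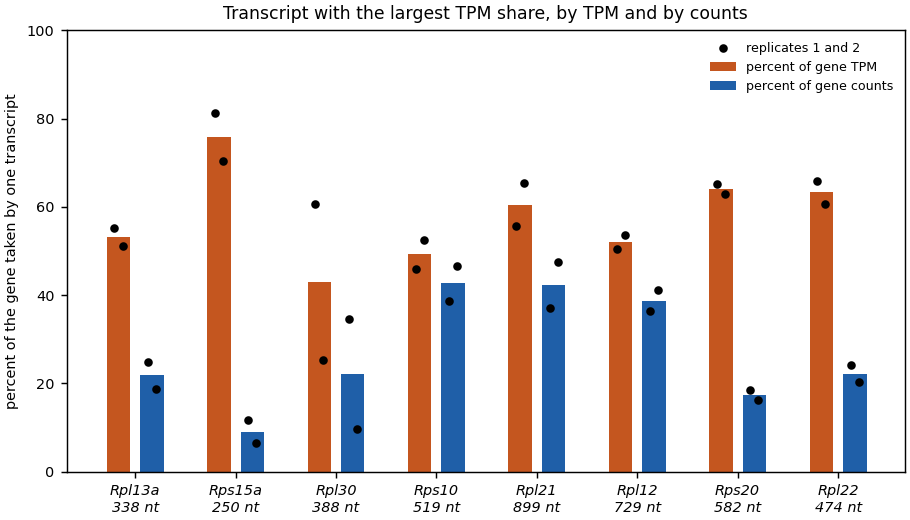
Percent of gene TPM (orange) and of gene counts (blue) taken by the lead transcript by TPM, chosen by its mean over 2 libraries. Shown are the 8 members in which another transcript was the lead by counts. Bars are means of 2 libraries, points the libraries, and the length of the transcript is under each name. The 250 nt model of Rps15a holds 81.2 and 70.5% of TPM but 11.6 and 6.40% of counts.

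The deposited quantifications also assign fragments to pseudogenes of these genes. Pseudogenes were aligned to the protein-coding transcripts of members, untranslated parts included. By alignment (at least 90% identity over at least 50% of the pseudogene's length) or by symbol, 793 were copies of a member. Of the 82 members, 78 had at least 1, with Rpl21 at the top with 61. Of the copies, 444 were listed at 0 in both libraries and 33 reached 10 TPM. Copies took 7.31 ± 0.702% of the TPM of members plus copies and 5.06 ± 0.518% of the counts. In 23 copies the whole annotated sequence was identical to a stretch of a member's transcript. Fragments inside such a sequence cannot be told apart between member and copy.

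For 2 members, copies held over 50% of the summed TPM in both libraries. Rpl5 was at 55.1 and 45.4 TPM, while its copy Gm15500 on chromosome 7 (114705217 to 114706235) was at 252 and 212 TPM. Copies took 82.1 and 82.5% of the summed TPM and 74.0 and 74.5% of the counts. The first 60 of the 894 coding bases of Rpl5 are shown with those of Gm15500, which differs at 0 of the 894.

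Rpl5: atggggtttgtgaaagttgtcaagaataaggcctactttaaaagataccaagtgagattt
Gm15500: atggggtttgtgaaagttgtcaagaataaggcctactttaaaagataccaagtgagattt

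With copies added, Rpl5 stood at 283 ± 35 TPM, place 53 of the family instead of 77. Rpl27 was at 103 and 104 TPM and its identical copy Rpl27-ps3 at 247 and 304 TPM, and with copies it stood at 379 ± 40.9 TPM, place 36 instead of 75. Rpl27a was at 174 and 146 TPM beside 164 and 243 TPM for its identical copy Gm7536. Its share taken by copies was 48.8 and 62.8% of TPM but 19.8 and 30.1% of counts. In Rps28, Gm10443 had 411 and 217 TPM from only 443 and 175 counts, on an effective length of 13.0 and 10.7 nt, and copies took 54.1 and 35.6% of TPM but 8.57 and 3.72% of counts. The authors' posterior SDs of counts were small for these genes, at 2.05 and 2.41% of the count for Rpl27, 1.1 and 1.38% for Rpl5, 1.27 and 1.08% for Rps27, 0.914 and 1.05% for Rps6 and 0.764 and 0.660% for Rpl15, the 5 largest relative SDs of members above 10 TPM. With copies added to each member, the lowest of the 76 genes without the suffix l was at 108 TPM instead of 50.2 TPM, and the SD of log2 TPM across them was 0.83 instead of 0.92. Whether the copies are transcribed was not tested.

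**Figure D4:**
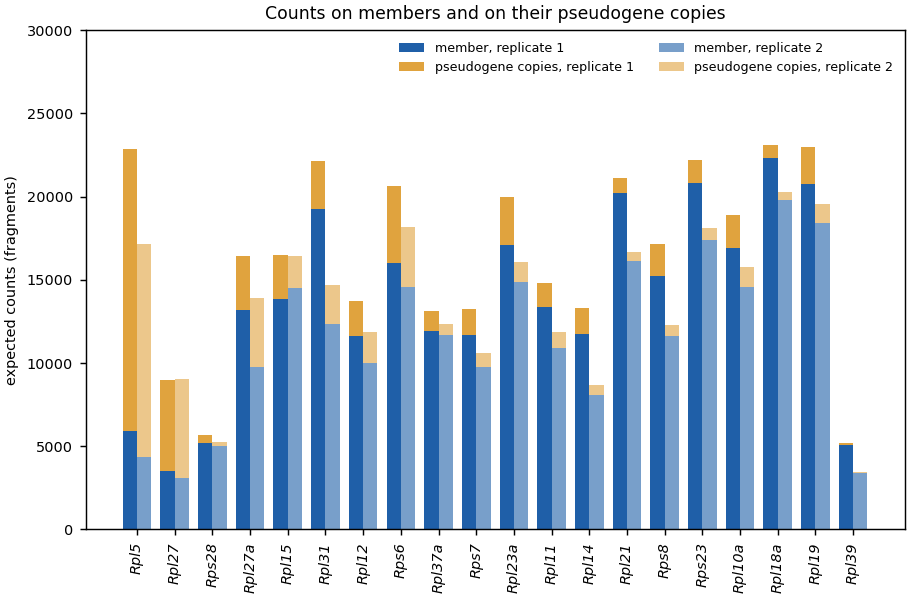
Expected counts of members (blue) and of all their pseudogene copies (orange, stacked) in replicate 1 (dark) and replicate 2 (light), for the 20 members with the largest share of TPM on copies in replicate 1 among those whose copies together exceed 10 TPM. Copies outweigh the member in Rpl5 and Rpl27 and form a smaller part elsewhere.

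Between the replicates the family moved little. Ratios are log2 of replicate 2 over replicate 1 in CPM scaled with TMM factors, over genes at 10 TPM or more. CPM levels printed beside them are not scaled with these factors, so levels and ratios do not match exactly. Members had a median of −0.03 and an SD of 0.18, and protein-coding genes a median of 0.01 and an SD of 0.20. Of the 79 members, 34 (43.0%) were higher in replicate 2, and 54.1% of protein-coding genes. A ratio past 0.32 in either direction, the threshold used throughout, was found in 5 of 79 members (6.33%), and in 4.31% of the protein-coding genes at 10 TPM or more. The background was 3.11% for higher and 1.2% for lower, and the members gave 3 and 2 genes. Past 1.5-fold lay 0 of the 79, and 0.632% of protein-coding genes. The members' count lies near the background and is no result about the family.

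The 3 higher in replicate 2 were Rpl41, with 258 and 339 CPM, a ratio of 0.44 (counting interval 0.42 to 0.47), Rpl28 at 81.1 and 103 CPM, 0.40 (0.36 to 0.45), and Rpl15 at 131 and 161 CPM, 0.35 (0.32 to 0.38). Rps29 and Rps26 followed at 0.31 and 0.30. Among the lower was Rpl31 with 182 and 137 CPM, −0.36 (−0.39 to −0.33), and short of the threshold lay Rpl39 (−0.30), Rpl22l1 (−0.29) and Rps15a (−0.28). The counting intervals do not cover the spread between samples. Rpl15 was inside the threshold by library size alone (0.30), by the spike-in total (0.31) and with the counts of its pseudogene copies added (0.27). Rpl28 was inside it by deposited TPM (0.30), and Rpl31 by deposited FPKM (−0.27) and with copies added (−0.31). With copies added to every member, 4 members were past the threshold. All 4 X-linked members, Rpl10, Rpl36a, Rpl39 and Rps4x, were lower in replicate 2, at −0.054, −0.12, −0.30 and −0.10. The values for Rpl10, Rpl36a and Rps4x lie within the members' SD of 0.18. Cell markers moved as well. Marker lists are given here without the minimum level. All 5 microglia markers were lower in replicate 2 (median −0.41), while all 5 oligodendrocyte and all 5 blood markers were higher (medians 0.45 and 0.46). Of the 5 blood markers, 4 were at 10 TPM or more. Of the 5 endothelial and mural markers, 4 were lower and 1 higher (median −0.15). The part of tissue composition and of the sexes in the members' ratios cannot be told apart, since each replicate is 1 library.

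Ratios of the pseudogene copies had a lower median. Of the 33 pseudogene copies at 10 TPM or more, 28 were lower in replicate 2, with a median ratio of −0.41, and 19 (57.6%) were past the threshold in that direction and 2 (6.06%) in the other. The 31 members with such copies had a median ratio of 0.02, 14 of them being lower. Other pseudogenes at 10 TPM or more, 79 in number, had a median of −0.21 with 40.5% past the threshold lower and 17.7% higher. The largest changes among copies were −2.02 for Gm10163, a copy of Rpl21, and −1.42 for Gm10335, a copy of Rpl23a, and Gm7536 went the other way at 0.66.

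On the TPM scale, where ratios were not scaled with TMM factors, more members were past the threshold. By deposited TPM, 18 of 79 members (22.8%) were past the threshold, 16 of them lower in replicate 2, beside 8.69% of protein-coding genes (7.26% lower and 1.43% higher). The deposited TPM intervals of the libraries were apart in 58 of 79 members (73.4%) and in 59.6% of protein-coding genes. The median TPM ratio of the members was −0.14 and that of protein-coding genes −0.12. Both medians lay below 0, while the threshold is the same in both directions. The SD of the TPM ratio was 0.22 for members and 0.20 for protein-coding genes, beside 0.18 and 0.20 in CPM. In 3 members the TPM and CPM ratios lay more than 0.2 apart after centring on the protein-coding genes: Rpl30 (−0.82 in TPM, −0.18 in CPM), Rps15a (−0.80 and −0.28) and Rps27 (0.15 and 0.04). The effective length of Rpl30 was 316 and 447 nt and that of Rps15a 305 and 397 nt, beside the lower shares of their short models in replicate 2 given above. Across members the TPM ratio had no clear relation to effective length, with a rho of −0.07.

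**Figure D5:**
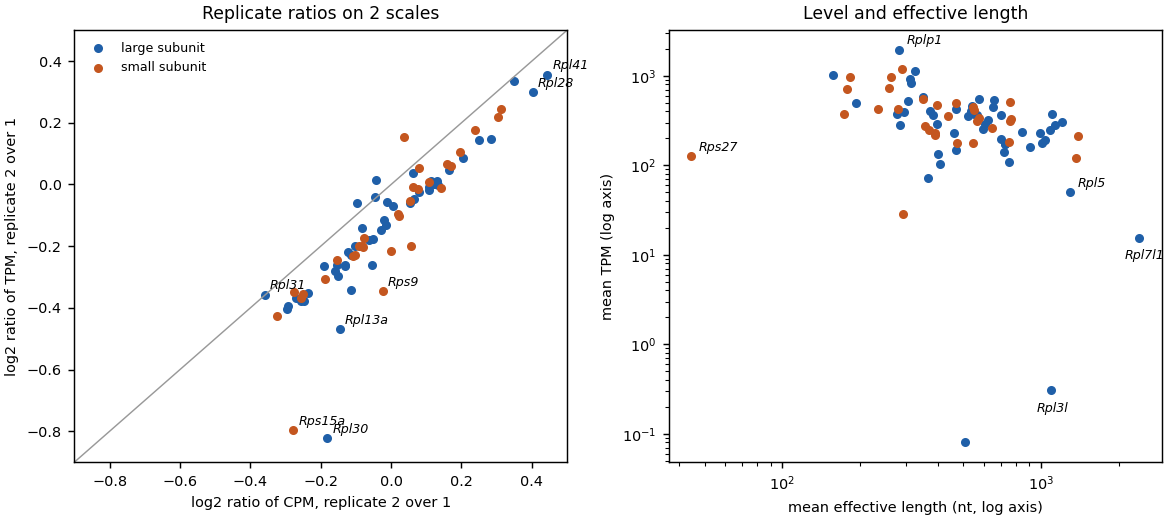
Left, log2 ratio of replicate 2 over replicate 1 in deposited TPM against the same ratio in CPM for the 79 members at 10 TPM or more, with the line of equal ratios; right, mean TPM against mean effective length (both log axes) for members above 0 TPM. Rpl30 and Rps15a lie far below the line of equal ratios, at −0.82 and −0.80 in TPM, and Rps27 stands apart at the shortest effective length.

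Start sites were examined in the RefSeq promoter table for mm10 (GRCm38.p6), which held 62 of the 82 members. At the annotated start, a C followed by at least 4 pyrimidines was present in 13 of 62 members (21%) and in 3.23% of 6337 protein-coding genes at 10 TPM or more. The windows below reach from 15 bases before the start to 15 bases from it, on the gene's strand, and capitals mark the pyrimidine run at the start. They are shown for the 5 longest runs, for Rpl38, whose run of 8 is shared by Rpl28, Rpl35a and Rps15a, and for Rpl5, which has none at this position.

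Rpl15, chr14:18270972-18271001, minus strand: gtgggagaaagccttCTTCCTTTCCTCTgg
Rpl35, chr2:39005117-39005146, minus strand: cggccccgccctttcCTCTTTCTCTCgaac
Rps10, chr17:27635230-27635259, minus strand: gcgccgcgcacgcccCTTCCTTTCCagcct
Rps18, chr17:33955651-33955680, minus strand: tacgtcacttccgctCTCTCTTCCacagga
Rps6, chr4:86857353-86857382, minus strand: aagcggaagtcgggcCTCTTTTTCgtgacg
Rpl38, chr11:114668565-114668594, plus strand: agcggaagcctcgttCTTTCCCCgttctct
Rpl5, chr5:107900513-107900542, plus strand: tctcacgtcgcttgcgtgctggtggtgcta

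The 13 genes were Rpl14, Rpl15, Rpl28, Rpl35, Rpl35a, Rpl38, Rplp2, Rps6, Rps10, Rps15a, Rps18, Rps21 and Rps27. A run of 7 pyrimidines within the window around the start occurred in 66.1% of members and 36.8% of protein-coding genes. Over the 250 bases before to 50 after the start, on both strands, CCGGAAG, a form of the ETS family motif, occurred in 25 of 62 members (40.3%) and 21.3% of protein-coding genes. CTCGCGAGA occurred in 11.3 and 1.88%, and ATGGCGG in 17.7 and 11%. GGGCGG was found in 61.3 and 72.5%, CCAAT in 29.0 and 43.2% and TATAAA in 11.3 and 8.08%. These are letter matches at annotated starts, which can lie some bases from the starts used in this tissue.

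Members lay on 19 chromosomes, 14 of them on chromosome 7. A small nucleolar RNA (snoRNA), a guide of ribosomal RNA modification, was annotated inside 29 members, 55 in all and 5 in Rpl4. This was 35.4% of members and 2.06% of protein-coding genes at 10 TPM or more. The libraries hold RNA above 200 nt, so most snoRNAs themselves were not measured here.

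Of the 6 structural ribosomal genes outside the symbol rule, all exceeded 10 TPM. Fau, which encodes a ribosomal protein with a ubiquitin-like fusion, was at 499 and 444 TPM, Rpsa at 292 and 275 TPM, and Rps27rt was the lowest. Including them, the family took 3.28% of TPM. Lists of genes that build ribosomes had lower medians than the structural genes, at 259 TPM. Several building genes, Rrp1 and Npm1 among them, exceeded the lowest structural gene. The 10 nucleolar and snoRNP genes had a median of 42.0 TPM, with the histone chaperone Npm1 highest at 118 ± 0.707 TPM and Nop58 lowest at 11.5 ± 2.19 TPM. The 16 assembly and export factors had a median of 12.6 TPM, led by Rrp1 at 194 ± 7.48 TPM and Sbds at 45.1 ± 4.58 TPM, with Riok1 lowest at 6.63 ± 0.325 TPM. The 5 genes of RNA polymerase I and its transcription factors had a median of 14.4 TPM, led by Ubtf at 49.5 ± 0.778 TPM. The 10 genes of mTOR signalling to these mRNAs had a median of 20.8 TPM, led by Rheb at 57.3 ± 2.63 TPM and Rps6kb2 at 36.6 ± 1.20 TPM, with Eif4ebp1 lowest at 5.53 ± 0.247 TPM. In each of these 4 lists of building and signalling genes, 0 genes were past the threshold between the replicates.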

How the data were processed

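Polyadenylated RNA of frontal cortex was sequenced in 2 libraries of 1 group, with spike-in RNAs added, per the labels. For each library the authors deposited gene and transcript quantifications on mm10 with annotation M4. No source used here names the aligner or quantifier. Deposited columns are expected counts (estimated fragments), TPM, FPKM, the percent of gene TPM per transcript, and posterior means and SDs. Deposited TPM intervals carry no stated level.

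Symbols, biotypes and coordinates came from GENCODE M21, matched for 42462 genes. Members and gene lists were chosen with earlier results of these data known. CPM used TMM factors (1.02 and 0.982) from edgeR 4.0.16 on rounded expected counts without spike-ins and a prior count of 2. The scaling was tested on simulated counts with a fixed spread between libraries, which is no check of the ratios between these replicates. DESeq2 1.42.0 size factors were an alternative. Counting intervals are exact conditional binomial intervals at 95% and cover counting error only, since reads from PCR carry no molecular identifiers. Pseudogene copies were found by symbol or with blastn 2.17.0 between pseudogenes and whole protein-coding transcripts of members. Promoter windows came from RefSeq, and coding sequences from GENCODE M21 transcripts.

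Per library values are given for the 10 highest and 10 lowest members, all paralog and stalk pairs, the 5 highest and 5 lowest replicate ratios, the 5 lowest lead transcript shares and the 5 largest relative posterior SDs among members at 10 TPM or more. Of the other lists, the 2 most abundant genes and the lowest were named. Some genes that this rule names are not reported here by name but remain in all counts and medians. Rps9, Rpl13a, Rpsa, the genes under pseudogene copies and those named in CPM order were chosen after their values were seen. No p-values were computed, and the biological replicates share a donor label, so the spread may be partly technical.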

Additional observations from a re-analysis of the deposited data

How the results depend on the processing

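The members' share of TPM was 6.30% within nuclear protein-coding genes, 3.28% with the 6 structural genes outside the rule and 3.35% with pseudogene copies, and their share of counts was 1.40% within nuclear protein-coding genes. The median member level of 316.7 TPM was 254.4 as FPKM, 285 TPM over effective lengths of 300 nt or more and 365 TPM with copies. The log2 ratio of large over small subunit medians was −0.034 in CPM, −0.11 over members at 10 TPM or more and −0.13 with copies. The median replicate ratio was −0.14 by deposited TPM. The 5 members past 0.32 in log2 replicate ratio became 9 by library size alone, 18 by deposited TPM, 16 by TPM of transcripts of 400 nt or more and 0 at 1.5-fold. The length relation of −0.51 was 0.22 in CPM, and that of the replicate ratio 0.060 over effective lengths of 300 nt or more. Copies took 3.34% by symbol match alone, 5.06% of counts and 8.04% by posterior mean TPM. In CPM, Rps27 over Rps27l (−0.58) and over Rps27rt (−0.97) reversed. CPM is not divided by length; other causes were not tested.

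Leaving out either replicate gave 2.99 to 3.23% of TPM, 1.13 to 1.17% of counts and a median of 298.8 to 338.8 TPM. The subunit ratio was then −0.27 to −0.20 and the length relation −0.51, with 6.81 to 7.81% on copies and 30 members with a minor isoform. The number of pairs called stayed at 11. Because 1 library has no SD, that number does not check the spread between libraries. The copies and the short-transcript alternative were chosen after seeing the data. No paired analysis was possible because the study has 1 group. At this depth a gene at 0 counts was taken to have up to 3, which is no hard limit.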
